A study of Mus musculus with 4 samples.

Results

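Dense clusters of Pax7 binding were examined as chains of neighbouring ChIP-seq peaks. A chain was built by joining consecutive Pax7 summits, the highest points of the called peaks, wherever they lay no more than 12.5 kb apart on a chromosome, which is a distance commonly used to stitch enhancers into super-enhancers. Every peak in a chain of at least 4 summits was taken as a member. The rule gave 252 chains holding 1124 of the 20579 deposited Pax7 peaks, or 5.46%. The members were thus chosen on the summit positions of the same peak call that supplies their heights, so numbers, spans and heights are given as descriptions, with no test.

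The cells were iPax7 mouse embryonic stem cells, which carry a Pax7 transgene switched on by doxycycline (Dox), and which were differentiated in serum as embryoid bodies. Dox at 1 µg/ml was added from day 3, and PDGFRα+FLK1- cells were sorted on day 5. Per the methods of the study, the sorted cells were replated on gelatin and expanded with Dox and basic FGF. Chromatin was taken on day 9, after 6 days of Dox. The 2 Pax7 ChIP libraries and 2 input libraries shared the genotype, the Dox treatment and the sort, and the study merged each pair of replicates before calling peaks. The peak list is therefore 1 pooled call against input, without a Dox-free control and without an estimate of the spread between replicates. Pax7 came from a transgene in a line derived in culture rather than from the endogenous gene of satellite cells. No expression values were used here, so the labelled cell type could not be checked against its marker genes.

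Pax7 is a transcription factor with a paired domain and a homeodomain, and each domain recognises its own short DNA sequence. It marks satellite cells, the stem cells of skeletal muscle, and acts in them and in embryonic muscle progenitors upstream of the myogenic factors Myf5 and MyoD. It is known as a pioneer factor that can bind closed chromatin at enhancers, and dense groups of enhancers are often found beside genes that define a cell's identity.

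The sequences under chosen summits of 6 chains are printed as examples, and do not represent the members as a whole. Each is the plus strand of the mm9 genome (NCBIM37), written 5′ to 3′, within 50 bases of a summit. Capitals mark a paired-box core (GTCACG or its reverse complement CGTGAC), a paired-box plus homeobox sequence (ATTAGTCA followed by C or T), a homeodomain dimer (TAAT, any 2 bases, ATTA) or the E-box CAGCTG that myogenic bHLH factors can bind. A Pax motif below means any of the first 3, on either strand, and a core can overlap the paired-box plus homeobox sequence. The strongest peaks of the chain with the most summits (in Ddc) and of the 3 chains beside muscle regulators were shown by rule, and the other motif-bearing peaks at Myod1, Eya4, Runx1 and Lekr1 were added after their values were seen.
Ddc, strongest peak, chr11:11785019-11785119: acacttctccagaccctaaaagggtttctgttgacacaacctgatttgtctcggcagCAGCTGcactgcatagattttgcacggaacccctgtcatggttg
Myf5, strongest peak, chr10:106924032-106924132: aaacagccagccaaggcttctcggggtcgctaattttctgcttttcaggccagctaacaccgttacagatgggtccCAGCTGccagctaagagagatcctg
Myod1, strongest peak, chr7:53593165-53593265: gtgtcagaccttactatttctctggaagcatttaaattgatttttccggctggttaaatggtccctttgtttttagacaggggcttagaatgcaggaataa
Myod1, nearest peak of the chain, chr7:53608681-53608781: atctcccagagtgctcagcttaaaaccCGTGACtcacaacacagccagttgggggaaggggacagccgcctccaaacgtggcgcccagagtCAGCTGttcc
Eya4, strongest peak, chr10:22911203-22911303: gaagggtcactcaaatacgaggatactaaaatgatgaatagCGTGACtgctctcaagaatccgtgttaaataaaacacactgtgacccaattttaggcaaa
Eya4, the last summit, chr10:22923387-22923487: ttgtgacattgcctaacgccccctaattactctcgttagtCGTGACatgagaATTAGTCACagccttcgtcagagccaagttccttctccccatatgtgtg
Runx1, the first summit, chr16:92693598-92693698: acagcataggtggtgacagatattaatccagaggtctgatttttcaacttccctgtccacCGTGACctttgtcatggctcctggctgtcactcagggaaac
Runx1, the eighth summit, chr16:92730372-92730472: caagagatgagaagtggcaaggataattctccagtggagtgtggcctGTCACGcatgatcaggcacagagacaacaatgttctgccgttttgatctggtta
Runx1, the last summit, chr16:92740431-92740531: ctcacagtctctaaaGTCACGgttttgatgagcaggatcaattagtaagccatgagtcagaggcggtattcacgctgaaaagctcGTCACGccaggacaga
Lekr1, the third summit, chr3:65441391-65441491: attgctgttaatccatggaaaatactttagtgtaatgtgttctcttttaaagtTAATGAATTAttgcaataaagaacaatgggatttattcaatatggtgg
Lekr1, the fourth summit, chr3:65443965-65444065: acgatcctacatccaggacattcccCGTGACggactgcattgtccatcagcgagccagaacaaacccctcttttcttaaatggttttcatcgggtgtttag
Lekr1, the fifth summit, chr3:65444373-65444473: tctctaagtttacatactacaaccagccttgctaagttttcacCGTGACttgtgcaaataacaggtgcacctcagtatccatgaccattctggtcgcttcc
Lekr1, the last summit, chr3:65462810-65462910: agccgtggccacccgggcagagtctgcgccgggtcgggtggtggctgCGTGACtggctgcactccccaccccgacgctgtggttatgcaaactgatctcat

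Chains were mostly short strings of summits. Of the 252 chains, 184 held 4 summits, 40 held 5, 17 held 6, 6 held 7, 2 held 8, 2 held 9 and 1 held 10. Below the minimum stood 624 chains of 3, and a further 12413 peaks had no neighbour within the stitching distance. The median span from first to last summit was 15.5 kb (95% order-statistic interval 14.4 to 16.6, n = 252 chains), with quartiles of 10.7 and 20.3 kb and a range from 1.30 to 46.8 kb. The chains together spanned 4.10 Mb, 0.155% of the 2639 Mb of the chromosomes that carried peaks, and the called peaks themselves covered 7.96% of those spans.

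**Figure D1:**
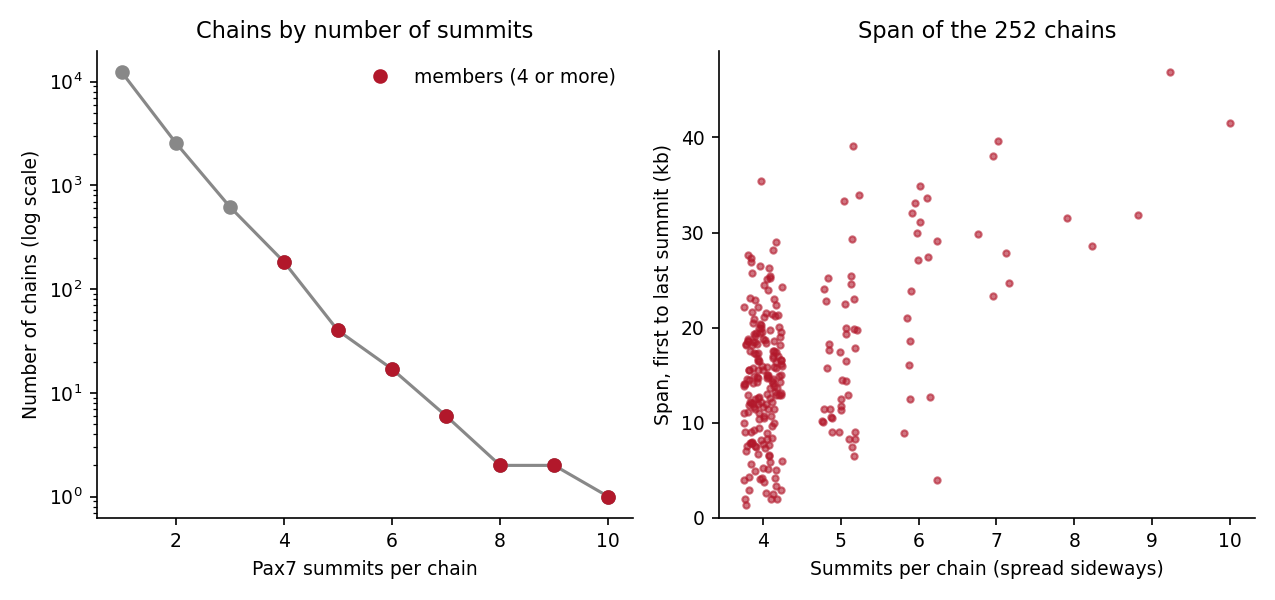
Left, number of chains (log scale) against Pax7 summits per chain, with the chains of 4 or more in red. Right, span from first to last summit (kb) of each of the 252 chains against its number of summits, points spread sideways at random. Chain numbers fell from 184 at 4 summits to 1 at 10, and the longest chain spanned 46.8 kb.

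Neighbouring summits of a chain were often much closer than the stitching distance. The 872 gaps between neighbouring summits had a median of 3850 bp (quartiles 1297 and 7483 bp), and 58.6% were under 5 kb. Gaps under 1 kb made up 20.2%, and 62 gaps were under 500 bp, where neighbouring calls could belong to a broader bound region. Merging peaks within 500 bp of each other before chaining left 185 chains and 802 members.

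Chains just inside and just outside the rule had similar heights, with a median fold enrichment of 5.23 over the peaks of chains of 4 and 5.23 over those of chains of 3. The widest gap still inside a chain of 4 was 12492 bp, in a chain on chromosome 18 with a median fold enrichment of 4.80. The next were 12364 bp beside Lnx2 and Polr1d (median 6.80) and 12339 bp beside Slc30a9 and Tmem33 (median 4.71). The nearest groups left out were split by gaps of 12621, 12636 and 12656 bp, with median fold enrichments of 5.08, 5.35 and 4.52. In all, 21 chains of 4 contained a gap within 1 kb of the limit, and 32 pairs of shorter chains were kept apart by a gap within 1 kb above it.

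Peaks in chains were about as high as other Pax7 peaks. Fold enrichment, the pooled ChIP signal at the summit over the local background, had a median of 5.22 in the 1124 members (interval 5.06 to 5.40), 5.18 in the 7042 peaks of chains of 2 or 3, and 5.23 in the 12413 single peaks. At least 5-fold enrichment was reached by 611 members, or 54.4%, where the share over all peaks was 54.9%. At least 10-fold enrichment was reached by 89 members, or 7.92%, against 6.99% of all peaks. Of the 40 peaks at 20-fold or more in the whole list, 5 were members. The median peak width was 264 bp in members and 250 bp in single peaks.

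Strong and weak peaks stood side by side within a chain. Peaks of 1 chain were hardly more alike in height than peaks of different chains: the between-chain share of the variance of log2 fold enrichment was 1.68%, and the SD within chains was 0.54 on the log2 scale against 0.55 over all members. The strongest peak exceeded its chain's median 1.52-fold in the median chain, with a range from 1.01-fold to 4.55-fold. It lay at an end of the chain in 126 of 252 chains (50%), while 44.8% of members lay at an end. A peak of at least 10-fold was present in 80 chains, all peaks reached 5-fold in 21 chains, and no peak did in 5.

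The chain with the most summits ran through Ddc, which encodes the decarboxylase that makes dopamine and serotonin. Its 10 summits covered 41.5 kb (chr11:11744393-11785866), 9 in introns and 1 in an exon. In order along the chromosome their fold enrichments were 4.03, 4.11, 5.60, 4.47, 8.25, 4.99, 6.78, 9.53, 13.4 and 4.60. The strongest was the exonic peak, 40.7 kb from the first summit, and it is the Ddc sequence printed above. None of the 10 summit windows contained a Pax motif, and 2 contained the E-box.

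The longest chain lay in Runx1, which encodes a runt-domain factor best known from blood formation. Its 9 summits spanned 46.8 kb (chr16:92693648-92740481) with fold enrichments of 4.71, 12.4, 4.36, 10.6, 4.11, 3.99, 6.75, 7.58 and 9.59. The second and the third summit were within 1 kb of an annotated Runx1 transcript start, 455 and 101 bp away, while the last summit still lay 85.8 kb inside the gene's outermost start. The first, the eighth and the last summit carried a paired-box core, and the last carried 2 of them, as printed above. The highest peak, at 12.4-fold, had none.

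Pde4d, a cAMP phosphodiesterase gene, held the other chain of 9 summits, over 31.8 kb (chr13:110423524-110455339). Its fold enrichments ranged from 3.14 to 10.3 with a median of 4.84. The first summit was 548 bp from a Pde4d transcript start and the other 8 were intronic. No Pax motif was found in any of the 9 windows.

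The 2 chains of 8 summits differed in their surroundings. One began upstream of Macrod1, an ADP-ribose hydrolase gene, and ran on into its introns (chr19:7129449-7157998, 28.5 kb), with Stip1, Fermt3 and Flrt1 starts within 50 kb. Its peaks ranged from 3.52-fold to 13.0-fold. The other lay wholly between genes, with the start of Lekr1 7.29 kb beyond its last summit (chr3:65431303-65462860, 31.6 kb). Its 8 peaks had the narrow range of 4.71-fold to 6.83-fold. In each of these chains 4 of 8 windows contained a Pax motif, and those beside Lekr1 were 3 paired-box cores and 1 homeodomain dimer.

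The 5 named chains of 7 summits covered intergenic stretches, a promoter and gene bodies. Beside Calcoco1, whose product is a coiled-coil coactivator, the 7 intergenic summits (chr15:102554305-102592399) had fold enrichments of 4.39, 16.0, 11.0, 6.94, 12.5, 4.36 and 7.64. That made 3 peaks of at least 10-fold over 38.1 kb. At Zfp608, a zinc finger gene, the 7 summits (chr18:55132764-55157417) had values of 20.4, 6.28, 6.62, 7.48, 5.23, 4.71 and 4.35, so the first summit stood far above the rest. The last summit lay outside the gene body, 5.17 kb from a Zfp608 start. The chain at the beta-tubulin gene Tubb2b (chr13:34217837-34241156) had its strongest peak, 10.8-fold, 521 bp from the Tubb2b start, and Tubb2a and Psmg4 starts lay within 50 kb. Its other 6 summits were intergenic, the farthest of them 15.7 kb from any annotated TSS.

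The chain at Hsd11b1, which encodes the enzyme that regenerates active glucocorticoid, spanned 39.6 kb (chr1:195030336-195069916). Its 7 peaks ranged from 3.96-fold to 9.94-fold. The body of Hsd11b1 held 5 of them, and the last was 198 bp from an Hsd11b1 start. The first and the second summit lay outside any protein-coding gene body. The first was the strongest of the chain, and the start of Traf3ip3 lay 2.44 kb before it. In Mboat1, a lysophospholipid acyltransferase gene, the 7 summits were all intronic (chr13:30297261-30327128), ranged from 3.85-fold to 7.25-fold and included 2 with a paired-box core.

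**Figure D2:**
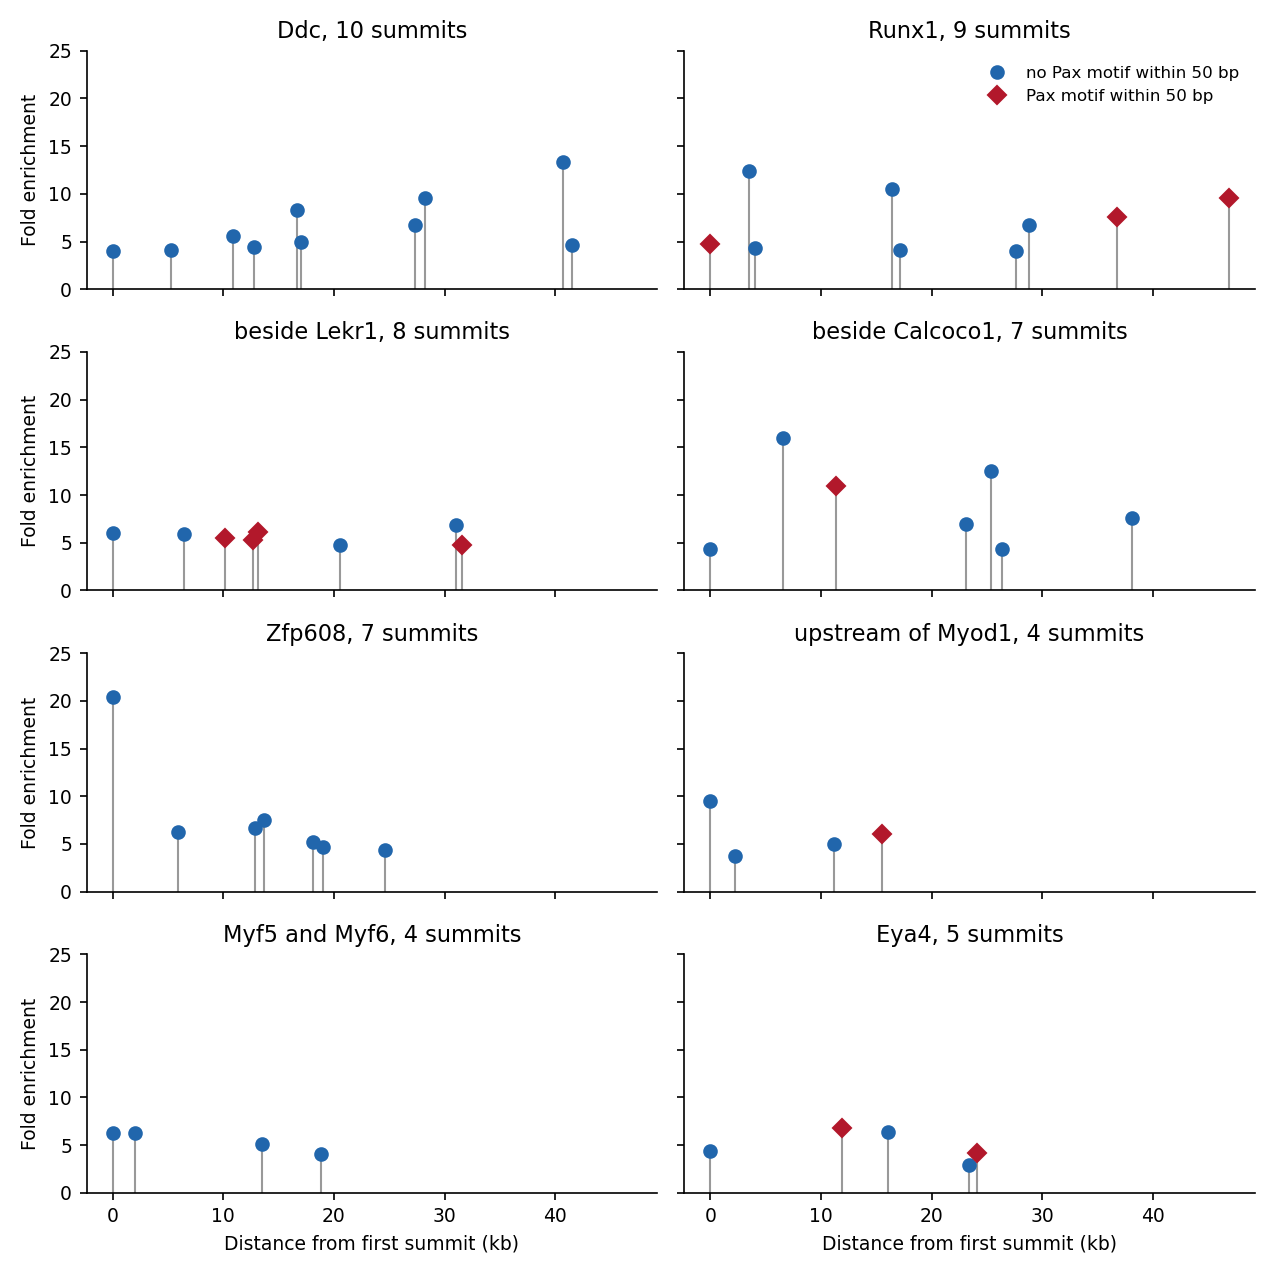
Fold enrichment of each Pax7 peak (vertical axis, pooled ChIP over local background) against its distance in kb from the first summit of its chain, for 8 named chains. Red diamonds mark peaks with a Pax motif within 50 bases of the summit and blue circles those without. In the Ddc and Zfp608 chains no peak carried a motif, and beside Lekr1 4 of 8 did.

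Muscle regulatory genes with a chain were few but included the early myogenic factors. Of 30 muscle regulators, 4 (Myf5, Myf6, Myod1 and Eya4) had a chain summit in the gene body or within 50 kb of the transcription start site (TSS), while 27 of the 30 (90%) had some Pax7 peak within 50 kb of the TSS, as did 55.3% of all protein-coding genes and 26 of 29 ribosomal protein genes (89.7%). The 4 genes belonged to 3 chains, since Myf5 and Myf6 shared 1. Over all protein-coding genes, 434 of 22350 (1.94%) had a chain by the same measure. The list was drawn up with earlier results of these data known, and no test was run on it.

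The chain at Myf5 and Myf6, neighbouring genes for the basic helix-loop-helix factors Myf5 and MRF4, had 4 summits over 18.8 kb (chr10:106922031-106940817). Their fold enrichments were 6.24, 6.32, 5.17 and 4.11. The first lay in a Myf5 intron, the second lay 892 bp from the Myf5 TSS, and the other two lay 3.76 and 9.03 kb from the Myf6 TSS. The values lay on both sides of the median of all peaks, 5.22, and no Pax motif was found at any of the summits. The second summit's window contained an E-box, printed above.

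The chain upstream of Myod1, the gene for the muscle determination factor MyoD, had 4 summits at 38.6, 36.4, 27.5 and 23.1 kb from its TSS (chr7:53593215-53608731). Their fold enrichments were 9.49, 3.70, 5.04 and 5.99. The farthest summit was the highest and carried no Pax motif, and the nearest carried a paired-box core and an E-box. Kcnc1, a potassium channel gene, also had its TSS within 50 kb of a summit.

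Eya4 encodes a coactivator and phosphatase that partners homeodomain proteins in muscle progenitors. Its chain of 5 summits lay in introns (chr10:22899325-22923437, 24.1 kb), with the nearest summit 146.3 kb from the gene's outermost TSS. The fold enrichments were 4.37, 6.80, 6.35, 2.88 and 4.20. The second and the last summit carried Pax motifs, and the last held both a paired-box core and a paired-box plus homeobox sequence.

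The highest median fold enrichments were found in 3 chains of 4 summits. In Eri3, an exoribonuclease gene, the values were 7.14, 12.0, 6.21 and 12.1 (chr4:117268051-117282099, median 9.55), and the first and last windows carried a paired-box core. A chain far from genes, at chr7:96088894-96108424, had 8.94, 18.7, 3.17 and 10.1 (median 9.51), and its nearest annotated transcript start, of Tmem135, was 194.4 kb from the last summit. At Zc3h3 the values were 19.7, 6.88, 9.90 and 6.45 (chr15:75660210-75681410, median 8.39), and a homeodomain dimer lay at the highest of them.

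The densest chains were short and low. At Gm7461, 4 summits lay within 1.30 kb (chr8:4677329-4678633) and ranged from 3.43-fold to 7.04-fold. In Lrch1, 4 summits lay within 1.94 kb (chr14:75282330-75284267), from 3.20-fold to 6.21-fold, and in the autophagy gene Atg7 4 lay within 1.96 kb (chr6:114674892-114676847), from 4.01-fold to 6.39-fold. These 3 chains were lost when peaks within 500 bp of each other were merged.

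Several further chains were picked out after their values were seen. The highest peak of any chain, at 23.4-fold with a Pax motif, was the last of 4 summits upstream of Cdon, which encodes a cell surface receptor that promotes myogenic differentiation. That summit was 48.7 kb from the Cdon TSS, and the other peaks of the chain (chr9:35165544-35180022) were at 5.76, 6.84 and 4.63. A second chain of 4, at 3.99, 5.28, 3.60 and 5.63, began 40.1 kb further on and reached into the Cdon gene (chr9:35220080-35243183). Cdon thus had 8 chained summits in and upstream of its body.

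Such neighbouring chains were uncommon. In 9 cases 2 chains lay within 50 kb of each other, and in 18 cases within 100 kb. Besides Cdon they included Col19a1, a collagen gene, where chains of 5 and 4 summits were 26.7 kb apart, and Fry, where chains of 4 and 4 were 42.9 kb apart.

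Most members lay in introns. Introns held 618 of 1124 members (55.0%, Wilson 95% interval 52.1 to 57.9), against 45.1% (43.9 to 46.2) of peaks in chains of 2 or 3 and 39.3% (38.5 to 40.2) of single peaks. Sites between genes made up 27.8% of members (25.3 to 30.5) and 41.1% of single peaks (40.2 to 42.0). Summits within 1 kb of any annotated TSS made up 13.9% (12.0 to 16.0) and 17.1% (16.5 to 17.8), and exons 3.29% and 2.48%. The intervals cover counting error only, and are too narrow because peaks of a chain share a locus. No test of these differences was run.

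**Figure D3:**
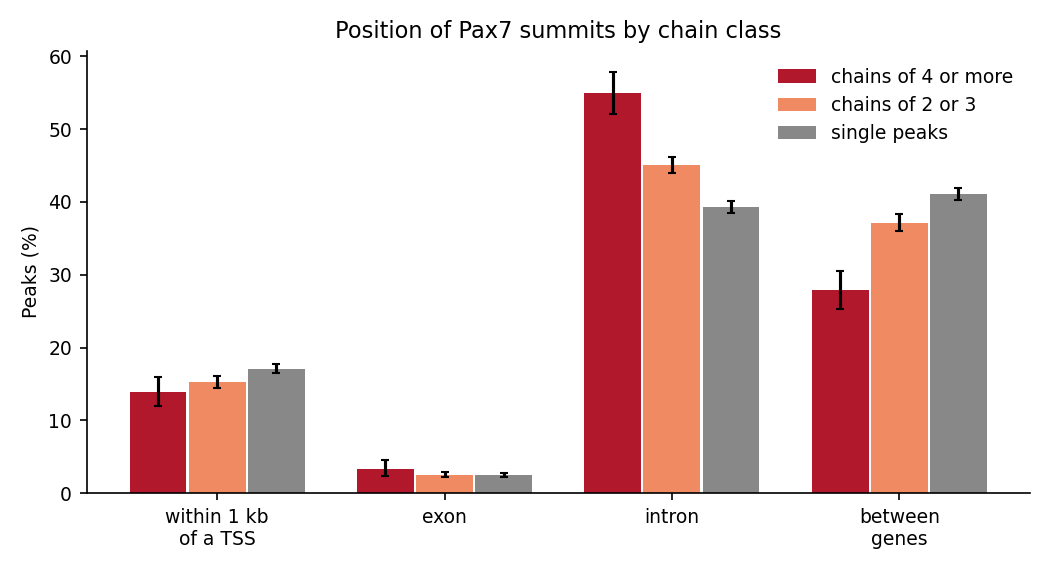
Share of Pax7 summits (%) within 1 kb of a TSS, in other exon, in intron and between genes, for peaks in chains of 4 or more (red), chains of 2 or 3 (orange) and single peaks (grey). Error bars are Wilson 95% intervals, for counting error only. Introns held 39.3% of single peaks and 55.0% of chain members.

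Whole chains often sat inside 1 gene. In 123 of the 252 chains every summit lay in the body of a single protein-coding gene, and in 64 no summit lay in any. All summits were intronic in 86 chains and intergenic in 46. A summit within 1 kb of a TSS was present in 96 chains, and in 1 chain all summits were. The outermost start of a protein-coding gene lay between the first and last summit in 63 chains, and 2 or more such starts did in 17. In 86 chains no outermost start of a protein-coding gene lay within 50 kb of any summit. Some of these chains, as in Runx1 and Pde4d, still had a summit close to an internal transcript start. The 4 kinds of chain had similar heights, with median fold enrichments of 5.37 for wholly intronic chains, 5.24 for intergenic chains, 5.06 for chains touching a TSS and 5.12 for the remainder.

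The genes that held the most members were long. At least 4 members lay in the bodies of 125 protein-coding genes, whose median length was 165.5 kb, against 15.4 kb over all protein-coding genes, and 70.4% of them exceeded 100 kb against 10.7% of all. A longer body has more room for 4 summits, and the median chain spanned 15.5 kb, so the selection itself favoured long genes. The part of gene length in the intronic share was not tested. Ldlrad3 led with 11 members in 236.2 kb, followed by Ddc and Zfp608 with 10 each, and by Agap1, Col19a1, Pde4d and Runx1 with 9 each. Auts2 and Fry held 8. The 10 members assigned to Gm20388 rest on a gene model of 4435 kb that spans many other genes.

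Many members could also lie in a gene shorter than those with the most members, or in a short stretch of a long one. The shortest gene with at least 4 members was still 22.3 kb long. The calponin gene Cnn3, which encodes an actin-binding protein, held a chain of 6 summits in its 31.7 kb, with fold enrichments of 5.23, 4.55, 3.68, 8.27, 6.74 and 5.44. In Tcf7l1, a gene of 162.9 kb for a Tcf/Lef factor of the Wnt pathway, 6 summits lay within 3.95 kb (chr6:72661098-72665049), from 2.62-fold to 8.19-fold. Both were named after their values were seen. Neither had a peak of 10-fold, unlike the chain in Ddc.

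Chains were spread over all chromosomes that carried peaks. Chromosome 19 had the highest density, with 13 chains or 0.212 per Mb, and members made up 8.88% of its peaks. Chromosome X had the lowest density, with 2 chains or 0.012 per Mb. It carried only 243 peaks in 166.65 Mb, and 4.12% of them were members, where the share over all peaks was 5.46%. Chromosome 16 followed with 5 chains or 0.0509 per Mb, and its member share of 3.11% was the lowest of any chromosome.

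Pax motifs were about as frequent at chain members as elsewhere. A Pax motif lay within 50 bases of the summit in 165 members (14.7%, Wilson 95% interval 12.7 to 16.9) and in 13.7% of all peaks. The paired-box core accounted for most, at 12.0% of members and 11.1% of all peaks. The paired-box plus homeobox sequence was found in 1.87% of members and 2.10% of all peaks, and the homeodomain dimer in 1.33% and 0.831%. Windows of the same width centred 500 bp to the left and right of the summit contained a Pax motif in 1.33% and 2.94% of members, or in 0.883% and 2.45% where the window overlapped no other peak. Where present, the core lay a median of 14.5 bases from the summit (n = 135 members).

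Binding sequences of other factors gave similar shares in members and in all peaks. The E-box CAGCTG was found in 16.5% of members and 15.7% of all peaks, the Tead sequence GGAATG in 11.3% and 11.0%, the Runx sequence TGTGGT in 10.1% and 9.73%, and the AP-1 sequence (TGA, C or G, TCA) in 4.36% and 4.78%. The control sequences GCACTG and CGATGC were found in 5.87% and 1.51% of members and in 6.86% and 1.23% of all peaks.

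Higher peaks carried a Pax motif more often, inside chains and outside. Among members the share went from 9.76% (6.40 to 14.6, n = 205) below 4-fold to 22.5% (15.0 to 32.2, n = 89) at 10-fold or more. Among single peaks it went from 10.4% (9.11 to 11.8) to 24.8% (22.0 to 27.8). The intervals of members and single peaks overlapped in all 5 ranges of fold enrichment. Within chains, the strongest peak carried a motif in 49 of 252 chains (19.4%, 15.0 to 24.8) and the weakest in 29 (11.5%, 8.13 to 16.0).

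**Figure D4:**
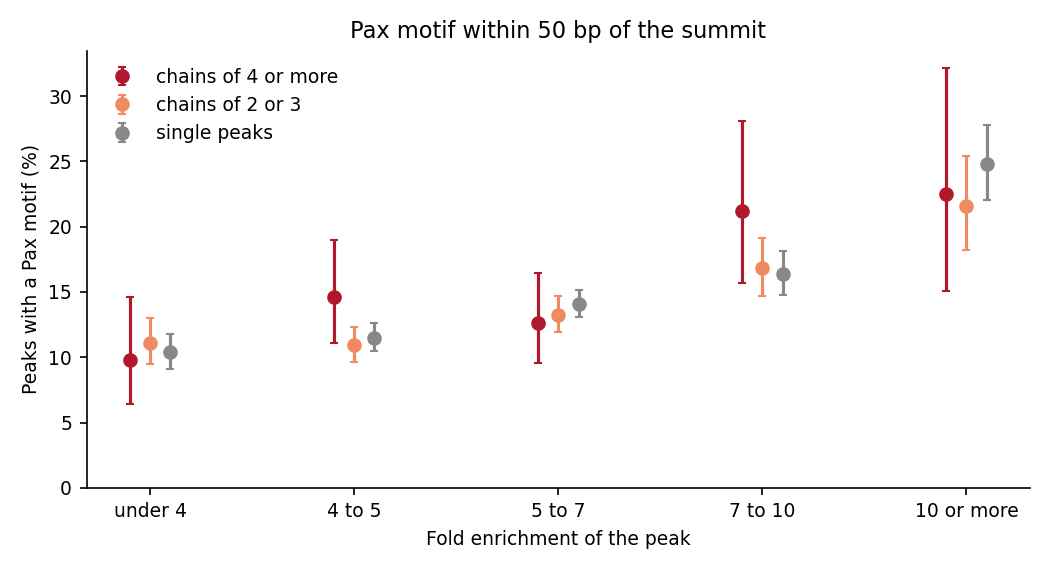
Share of peaks (%) with a Pax motif within 50 bases of the summit, by fold enrichment of the peak, for chains of 4 or more (red), chains of 2 or 3 (orange) and single peaks (grey), with Wilson 95% intervals. The share was 9.76% of members below 4-fold and 22.5% at 10-fold or more, and the intervals of the classes overlapped.

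Most chains held at most 1 motif-bearing peak. A motif lay at 14.7% of members and 13.7% of all peaks, and a chain had a mean of 4.46 summits. Whether the counts per chain differ from what these shares alone would give was not tested. At least 1 member had a Pax motif in 122 chains (48.4%), at least 2 in 32 and at least 3 in 8, while 130 chains had none. The right flanking windows contained at least 1 in 32 chains. The most in 1 chain was 4, reached at Macrod1, beside Lekr1 and, in 4 of 5 windows, in Jmjd1c, a jumonji-domain gene. Where 2 members of a chain each had cores on 1 strand, the strands were the same in 19 pairs and opposite in 25.

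Summit windows of a chain rarely shared a long exact run of bases. Multiply mapping reads had been discarded before peak calling, and an exact match misses diverged copies. The count therefore cannot settle whether members were copies of one another. Of the 2058 pairs of summit windows within chains, 1 shared a run of 20 bases, in the chain at Sirt4, where the summits were 830 bp apart.

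Genes of other groups met chains in small numbers. Of 13 Pax7-associated or enhancer-bound factors, 3 had a chain. Besides Runx1 these were the AP-1 gene Fos, with 4 summits 5.76 to 18.6 kb from a TSS at 2.59, 3.43, 11.2 and 4.25, and the forkhead gene Foxk1, with 4 intronic summits at 8.71, 6.36, 5.25 and 6.08. The Foxk1 values lay above the median of all peaks, while only 1 of the 4 at Fos did. Of 30 matrix and adhesion genes, the muscle laminin gene Lama2 and the adhesion gene Ncam1 had a chain (6.67%, 1.85 to 21.3). The measure counts gene bodies, and both lists held long genes. Their median lengths were 76.5 kb for the 13 factors and 91.4 kb for the 30 matrix and adhesion genes, against 15.4 kb over all protein-coding genes. The part of gene length in these shares was not tested. The 6 Ncam1 summits, at 9.27, 4.88, 9.74, 4.90, 4.01 and 13.5, straddled the Ncam1 start (chr9:49601043-49635921), and the 4 in Lama2 were intronic.

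Acta1, which encodes skeletal muscle actin, was the only gene with a chain among 30 genes of contraction and the sarcomere. Its chain of 6 summits had values of 10.2, 8.09, 5.23, 5.35, 4.53 and 6.80 (chr8:126396157-126420020), and the last summit was 1.37 kb from the TSS of Acta1. All 6 were counted as intronic because they lie in the long Gm20388 model. Ebf3 was the only gene of 22 paraxial mesoderm and mesenchyme regulators, Tgfb3 the only one of 46 receptors and ligands, and Rps16 the only one of 29 ribosomal protein genes. The highest peaks of these 3 chains were 5.23-fold, 5.28-fold and 5.93-fold. No chain was found for the 15 matched neural crest and neural regulators or the 14 matched pluripotency genes, and with so few genes the Wilson 95% intervals of these zeros reach up to 20.4% and 21.5%.

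A chain of 5 summits at Id3, an inhibitor of bHLH factors, and its neighbour E2f2 was named after its values were seen. The starts of both genes lay between its first and last summit. It covered chr4:135699281-135733248 with values of 13.2, 5.58, 7.67, 6.12 and 6.29, and the first and second summits were 131 and 154 bp from a TSS. A chain in the histone cluster on chromosome 13, also named after its values were seen, had 5 of its 6 summits within 1 kb of a TSS, with values from 3.49 to 6.45.

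The genes that the study linked to Pax7-bound enhancers also met chains. These groups were named for their expression from embryonic stem cells to differentiated cells, and were drawn partly from Pax7 binding in these cells, so the counts are not independent evidence. A chain was found for 40 of 401 Active I genes (9.98%), 34 of 482 Active II genes (7.05%), 20 of 442 matched Active III genes (4.52%) and 24 of 365 matched Primed genes (6.58%), against 1.94% of all protein-coding genes. Some Pax7 peak lay within 50 kb of the TSS for 81.5% to 85.3% of the genes in these groups, against 55.3% of all. Active I included Myf5, Myod1, Lama2, Mboat1 and Pde4d, and Active II included Myf6, Eya4, Acta1, Ddc, Runx1 and Col19a1.

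**Figure D5:**
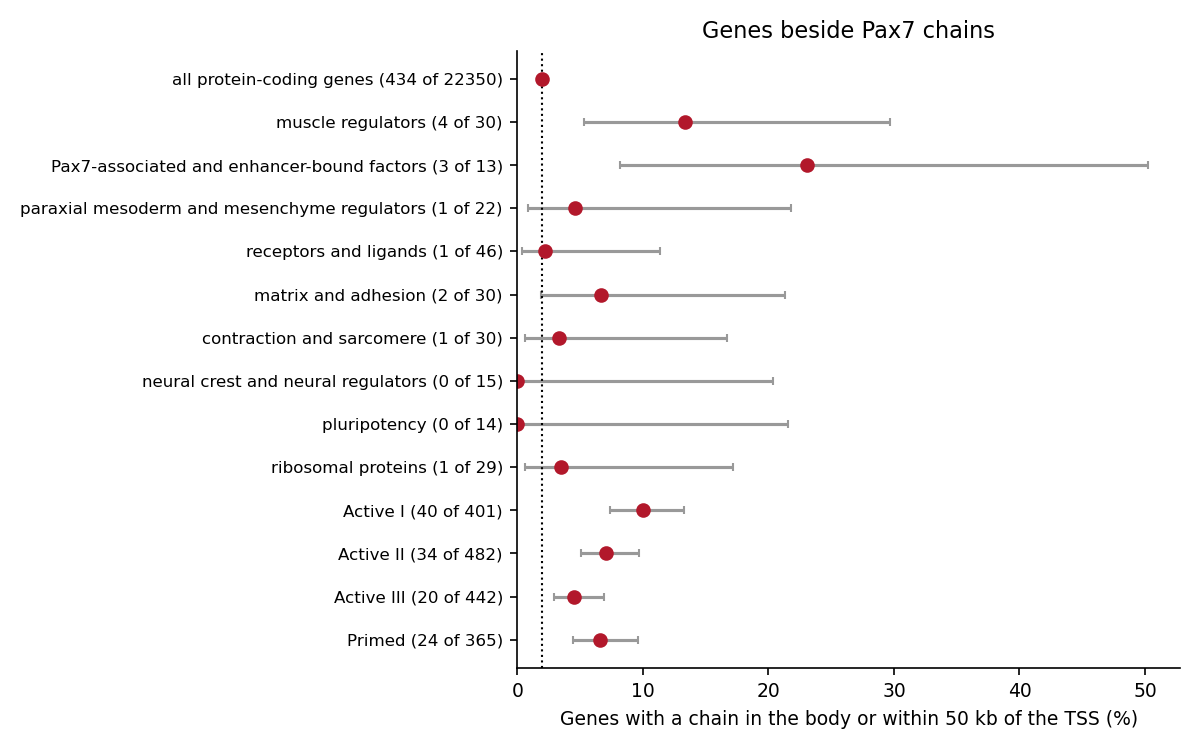
Share of genes (%) with a chain summit in the gene body or within 50 kb of the TSS, for all protein-coding genes (dotted line at 1.94%), the 9 gene lists and the study's 4 groups of enhancer target genes, with the counts beside each name. Error bars are Wilson 95% intervals, for counting error only. The muscle regulators stood at 4 of 30 and Active I genes at 40 of 401.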

How the data were processed

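Pax7 ChIP-seq was analysed in iPax7 mouse cells after 6 days of Dox, with 2 ChIP and 2 input libraries. Before deposit, the authors had mapped the reads onto mm9 (bowtie2), discarded multiply mapping reads and duplicates (Picard), pooled the replicates and run MACS2 with the pooled inputs as control, per the methods of the study. The deposited list gives, for each peak, its start, end and summit, the fold enrichment (a ratio over local background), −log10 p-value, −log10 q-value and a score that is 10 times the −log10 q-value, cut to its whole part. The list gives no read counts per peak, so no interval was set on a single peak's value, and merged peaks carry no replicate error.

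From these, summits were chained at 12.5 kb, with at least 4 summits a chain, and placed on the GENCODE vM1 annotation of the same build: within 1 kb of a TSS, otherwise exon, intron or between genes, with introns of all annotated genes. Sequence came from the NCBIM37 genome. Shares carry Wilson 95% intervals and medians order-statistic intervals, and no test was run. Scripts used Python 3.11.15, pandas 2.3.3, scipy 1.17.1 and pysam 0.24.0, and were tested on simulated data with planted chains and motifs. Chains were named by rule: the 10 with the most summits (ties by summed fold enrichment), the 3 longest, the 3 with the highest median fold enrichment, the 3 densest and those at muscle regulators. Genes or chains outside the rule are marked as named after their values were seen, or stand for a list or a count. The members and the gene lists were chosen with earlier results of these data known. Alternatives changed the stitching distance, the minimum number of summits, the peaks admitted, the merging of close peaks, the measure of the gap, and the TSS, motif and gene distances.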

Additional observations from a re-analysis of the deposited data

How the results depend on the processing

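No paired analysis was possible because the peak list is 1 pooled call. Of 78 recomputed values, 35 stayed within 1.5 times the count or within the interval of the reported value, and 43 moved, none of them a tested result. A stitching distance of 5 kb gave 70 chains, 296 members (1.44% of peaks), a median span of 6.52 kb, a median fold enrichment of 4.91, 17.9% of members at a TSS, 18.9% between genes and 85 genes with a chain within 50 kb of the TSS (368 under the rule, gene bodies not counted). At 25 kb there were 689 chains, 3341 members (16.2%), a median span of 34.6 kb, 34.3% between genes and 1175 genes. With 3 or more summits the values were 876 chains, 2996 members (14.6%), 10.6 kb, 32.8% between genes and 1167 genes, and with 5 or more they were 68 chains, 388 members (1.89%), 19.9 kb and 106 genes. Chaining only peaks of at least 5-fold left 41 chains, 174 members (1.54%), 18.1 kb, a median of 6.59-fold, 8.05% at a TSS, 18.97% with a Pax motif and 51 genes. The chains at Myod1 and at Myf5 and Myf6 were lost at 5 kb, with 5 or more summits and with only peaks of at least 5-fold, the Eya4 chain at 5 kb and with only those peaks, and the Runx1 chain at 5 kb. Of the 19 named chains, 9, 11 and 9 kept a member under these 3 settings. A −log10 q-value of at least 5 gave 4.71% of peaks and a median of 5.40-fold. Merging peaks within 500 bp gave 4.04% of peaks, 17.6 kb and 11.97% at a TSS. A TSS distance of 5 kb gave 33.3% of members. Motif windows of 25 and 100 bases to each side gave 9.70% and 17.97% with a Pax motif. Gene distances of 25 and 100 kb gave 228 and 642 genes. The number and extent of chains thus followed the rule's settings, and the Pax motif share stayed within its interval under 7 of the 8 ways of choosing members.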
